A study of Mus musculus with 8 samples.

Results

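The 36 genes described here encode the chaperones and disulfide isomerases of the endoplasmic reticulum (ER), the machinery of ER-associated degradation (ERAD), the sensors and transcription factors of the unfolded protein response (UPR), and parts of protein entry into and export from the ER. The list was drawn up by function, with earlier results of these data known. All 36 symbols had a row among the 22173 symbols of the count tables. All 36 passed the filter on low counts in the comparisons between macrophage libraries that the list was made for, and 35 passed it in the TEC pair. Proteins destined for secretion or for the cell surface enter the ER through the Sec61 channel and fold there with the help of BiP, GRP94, the lectin chaperones and the disulfide isomerases. When unfolded proteins accumulate, the membrane sensors IRE1, ATF6 and PERK are activated. IRE1 splices the mRNA of XBP1, ATF6 is cleaved into a transcription factor, and PERK slows translation and allows ATF4 to be made. XBP1 and ATF6 then raise the transcription of chaperone and ERAD genes, and Toll-like receptors are known to engage IRE1 and XBP1 in macrophages.

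The macrophages were primary bone marrow-derived macrophages (BMDMs) of wild-type mice, differentiated for 7 days in medium conditioned by L929 cells. M0 macrophages received no further stimulus, M1 macrophages received LPS (100 ng/ml) with IFN-γ (20 ng/ml) for 48 h, and M2 macrophages received IL-4 (20 ng/ml) for 48 h. Each state was sequenced without and with G-1 (10 μmol/L, 48 h), an agonist of the estrogen receptor GPER1. No time of culture after differentiation is given for the M0 library. It may therefore also differ in culture time from M0 with G-1, M1 and M2. For the sequenced libraries without G-1, no vehicle is named. The remaining pair was primary tubular epithelial cells (TECs) of wild-type mice kept for 24 h in a trans-well with M1 macrophages that had or had not been pretreated with G-1, so in this pair G-1 was given to the macrophages and not to the sequenced cells. The 8 libraries were each made from a pool of 3 samples. With 1 library per group there is no replicate check, no p-value is given for a pair of libraries, and the 95% intervals cover counting error only. Less RNA per cell and fewer cells of a type cannot be told apart in such bulk samples.

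Total counts ran from 35027179 to 40671596 per library. All 8 macrophage markers had at least 20 counts in the 6 macrophage libraries. Their summed level was 39780 CPM (counts scaled to the same library total) in M0, 10420 in M0 with G-1, 18160 in M1 and 12320 in M1 with G-1. With G-1, 7 of the 8 were lower and 1 higher in M0, and 5 lower and 3 higher in M1. In M2, 6 were lower and 2 higher. Cd68 was higher with G-1 each time, with 38559 and 70500 counts in M0, 14338 and 73489 in M1, and 58551 and 66488 in M2. The 8 tubular epithelial markers summed to at most 0.853 CPM in the macrophage libraries and to 7338 and 8257 CPM in the TEC libraries, where macrophage markers still summed to 192 and 115 CPM. Of 6 LPS and IFN-γ response genes, 5 were higher in the M1 library than in M0, among them Nos2 with 44992 counts against 2. Irf1 was lower, with 2391 counts against 3666. In the M1 library with G-1, 4 of the 6 were lower than in M1, among them Nos2 with 9422 counts. Tnf and Irf1 were higher there, with 24961 and 4426 counts against 17126 and 2391. The library labelled IL-4 did not carry the usual IL-4 response. Arg1 had 7 counts there, Retnla and Ccl17 had 0 and Chil3 had 9. Only Mrc1 was clearly higher than in M0, with 188110 counts against 83675. Retnla had 0 counts in all 8 libraries, so its 0 cannot show a missing response. By quantitative PCR, the paper reports higher Mrc1, Tgfb1, Retnla and Il10 after IL-4. The sequenced library is therefore called the library labelled M2 below. The methods list the 4 pairs as separate sequencing sets, so the effect of a stimulus and that of a sequencing set cannot be told apart wherever 2 pairs are compared.

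The chaperone genes carried more of the RNA in the M1 library than in any other library. The 36 genes together took 2.16% of all counts in M1 (95% exact binomial interval 2.16 to 2.17) against 0.758% in M0 (0.755 to 0.761), and 0.880% in M1 with G-1. In the other libraries the share ran from 0.682% in the library labelled M2 with G-1 to 1.07% in TECs beside G-1-pretreated macrophages. Hspa5 alone made up 23.6% of the counts of the 36 genes in M1, against 8.76 to 10.3% in the other libraries. Among the 8 libraries, M1 had the highest CPM for 27 of the 36 genes. Among the 6 macrophage libraries it had the highest for 30.

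**Figure D1:**
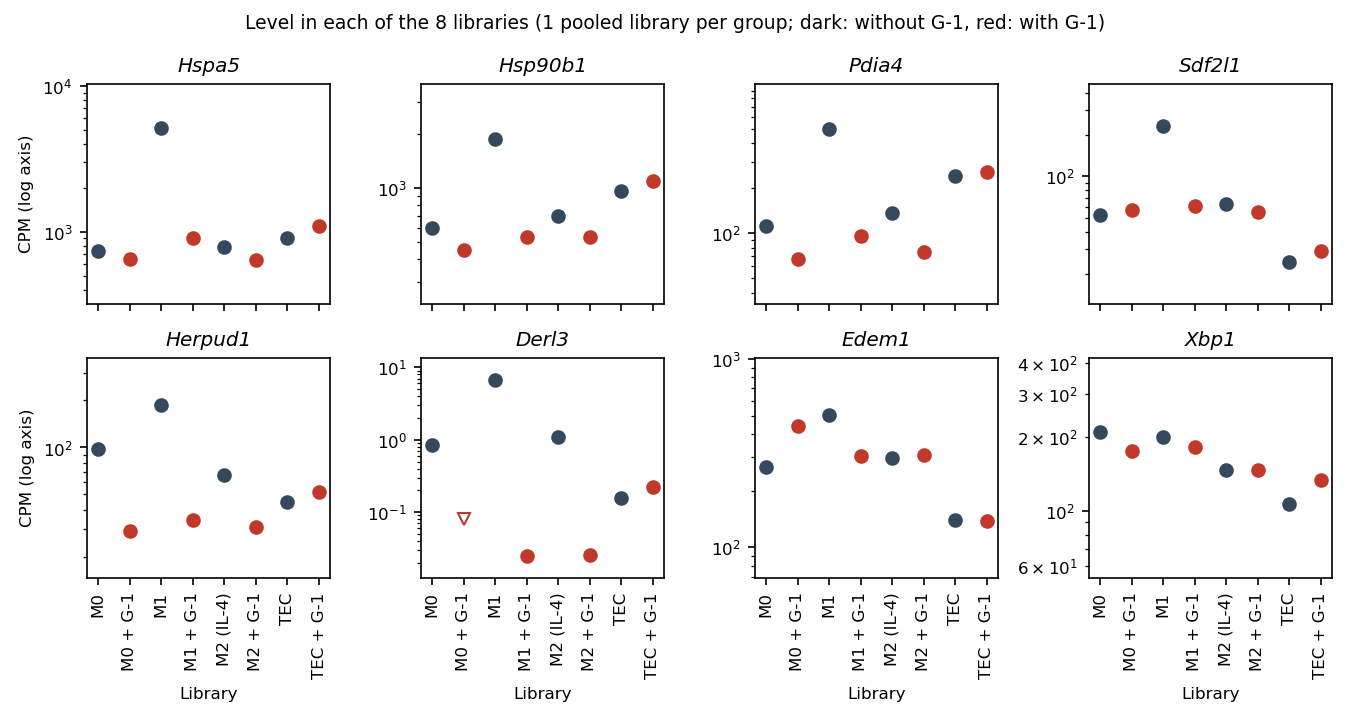
Level in CPM (log axis) of 8 of the genes in each of the 8 libraries, 1 point per library (dark without G-1, red with G-1; an open triangle marks 0 counts, drawn at the level of 3 counts). Hspa5 stood at 5109 CPM in M1 and at 639.7 to 1086 CPM in the 7 other libraries, Herpud1 was lowest in the 3 macrophage libraries with G-1, and Xbp1 differed little between M0 and M1.

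The promoters of many of these genes hold the ER stress response element (ERSE), the site through which ATF6 and XBP1 act together with NF-Y, and the sequences are shown here because the members that hold it are named again in the comparisons below. Its letters, CCAAT and CCACG with 9 bases of any kind between them, were searched on both strands of RefSeq promoters of GRCm38.p6, from 250 bases before to 50 bases after each gene's start. The element was found in 9 of the 31 members with a promoter in the table, namely Hspa5, Hsp90b1, Calr, Canx, Pdia6, Dnajc3, Creld2, Derl3 and Syvn1 (29.0%), and in 37 of 27025 genes overall (0.137%). Of 130 other ER and stress genes with a promoter, 1 held it. The related ERSE-II, ATTGG and CCACG with 1 base of any kind between them, was found in Herpud1 and Dnajb11, and in 12 genes overall (0.0444%). In Dnajb11 it lies after the start of the gene, in transcribed sequence, and it is not printed below. The UPR element TGACGTGG, whose other strand begins with the same CCACG as the ends of both, was found in the promoters of Vcp and Sec24d and in 0.714% of all genes. The letters TGATGNAAT, 1 form of the site of C/EBP and ATF4, were found in 0 of the 31 members and in 1.08% of all genes. Forms with another last base were not searched, so members may hold such a site. The Herpud1 promoter printed below matches all but the last base on its other strand. The promoters of Hyou1, Manf, Derl1, Atf6 and Sec61a1 were not searched. A match to these letters is a description of the sequence and not evidence of binding.

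The 250 bases before the start of the ER chaperone gene Hspa5 and of the ERAD genes Herpud1 and Derl3 are printed 5′ to 3′ on the strand of the gene, with the element in capitals. In Hspa5 the ERSE began 65 bases before the start, in Derl3 it began 156 bases before the start in the opposite orientation, and in Herpud1 the ERSE-II began 52 bases before the start.
Hspa5, chr2:34771840-34772089, plus strand: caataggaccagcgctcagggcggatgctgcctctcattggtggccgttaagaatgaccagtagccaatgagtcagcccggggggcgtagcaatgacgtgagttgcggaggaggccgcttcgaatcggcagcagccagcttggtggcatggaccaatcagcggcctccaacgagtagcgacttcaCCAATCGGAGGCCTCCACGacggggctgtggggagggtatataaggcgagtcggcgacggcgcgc
Derl3, chr10:75893148-75893397, plus strand: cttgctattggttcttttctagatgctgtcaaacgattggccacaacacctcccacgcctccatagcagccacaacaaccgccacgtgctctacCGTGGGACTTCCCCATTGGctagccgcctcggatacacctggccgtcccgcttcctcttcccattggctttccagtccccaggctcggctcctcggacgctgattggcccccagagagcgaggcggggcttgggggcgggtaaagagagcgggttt
Herpud1, chr8:94386179-94386428, plus strand: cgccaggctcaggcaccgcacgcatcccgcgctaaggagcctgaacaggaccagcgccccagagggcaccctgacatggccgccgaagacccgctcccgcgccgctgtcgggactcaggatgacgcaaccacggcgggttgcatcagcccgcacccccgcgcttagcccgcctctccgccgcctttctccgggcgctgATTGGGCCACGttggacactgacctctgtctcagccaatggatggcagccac

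For the other members with the ERSE, the element is printed in capitals with 20 bases on each side. Hsp90b1 held 2 elements in opposite orientations, and the stretch between them is included. In Calr and Creld2 the element lies in the opposite orientation to the gene, and in Canx, Pdia6, Dnajc3 and Syvn1 in the same one.
Hsp90b1, chr10:86705513-86705676, minus strand: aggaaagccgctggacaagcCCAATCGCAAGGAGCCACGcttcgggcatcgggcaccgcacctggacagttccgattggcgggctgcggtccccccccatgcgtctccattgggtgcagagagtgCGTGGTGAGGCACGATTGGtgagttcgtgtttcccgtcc
Calr, chr8:84847055-84847113, minus strand: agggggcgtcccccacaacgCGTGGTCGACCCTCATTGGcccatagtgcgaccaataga
Canx, chr11:50325780-50325838, minus strand: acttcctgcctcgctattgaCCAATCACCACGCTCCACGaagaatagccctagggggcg
Pdia6, chr12:17266471-17266529, plus strand: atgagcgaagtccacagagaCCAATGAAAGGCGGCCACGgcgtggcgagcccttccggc
Dnajc3, chr14:118937807-118937865, plus strand: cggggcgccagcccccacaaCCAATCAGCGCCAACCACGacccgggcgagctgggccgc
Creld2, chr15:88819500-88819558, plus strand: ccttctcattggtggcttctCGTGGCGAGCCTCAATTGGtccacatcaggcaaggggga
Syvn1, chr19:6046512-6046570, plus strand: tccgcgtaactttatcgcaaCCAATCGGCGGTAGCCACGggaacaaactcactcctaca

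LPS with IFN-γ was compared with M0 to show the response of these genes to an inflammatory stimulus. Of the 36 genes, 23 were at least 2-fold higher in M1 (63.9%; of all 11427 genes measured, 16.8%) and 0 were at least 2-fold lower (17.4% of all genes). The median fold was 2.28 (log2 1.19, against 0.01 over all genes measured), and 35 of the 36 were above M0. Genes with fewer than 20 counts in both libraries were left out. Folds were taken after TMM scaling within the pair, so they differ from the ratio of the CPM values. Scaling by total counts, as CPM does, moved the median log2 fold of all genes by -0.15 here and by -0.20 for G-1 in M1. Genes near 2-fold or near no difference can therefore fall on the other side by CPM. The difference was not even over the roles. All 4 disulfide isomerases and all 3 small stress-induced proteins were past 2-fold, as were 4 of 5 chaperones, 7 of 11 ERAD genes, 3 of 4 translocon and export genes, 2 of 4 HSP40 co-chaperones, and 0 of the 5 sensors and transcription factors.

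The same genes were then compared within M1 macrophages without and with G-1. With G-1, 16 of the 36 were at least 2-fold lower (44.4%; of all 11064 genes measured, 12.1%) and 0 were at least 2-fold higher (9.44% of all genes). The median log2 fold was -0.90, against 0.00 over all genes measured, and 31 of the 36 were below the library without G-1. Both comparisons use the M1 library, so a value that is high there by itself moves a gene up in the first and down in the second. The summed level of 6 LPS and IFN-γ response genes also differed between the libraries, with 6994 CPM in M1 and 2292 in M1 with G-1. Of the 6, 4 were lower with G-1, and Tnf and Irf1 were higher. Fibroblast markers summed to 36.4 CPM in M1 and 21.4 in M1 with G-1, against 3.45 in M0, with 3 of 7 at 20 counts or more in M1 (Dcn, Lum and Pdgfrb) and Col1a1, Col1a2, Col3a1 and Pdgfra at 0, and their part in the results was not tested.

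**Figure D2:**
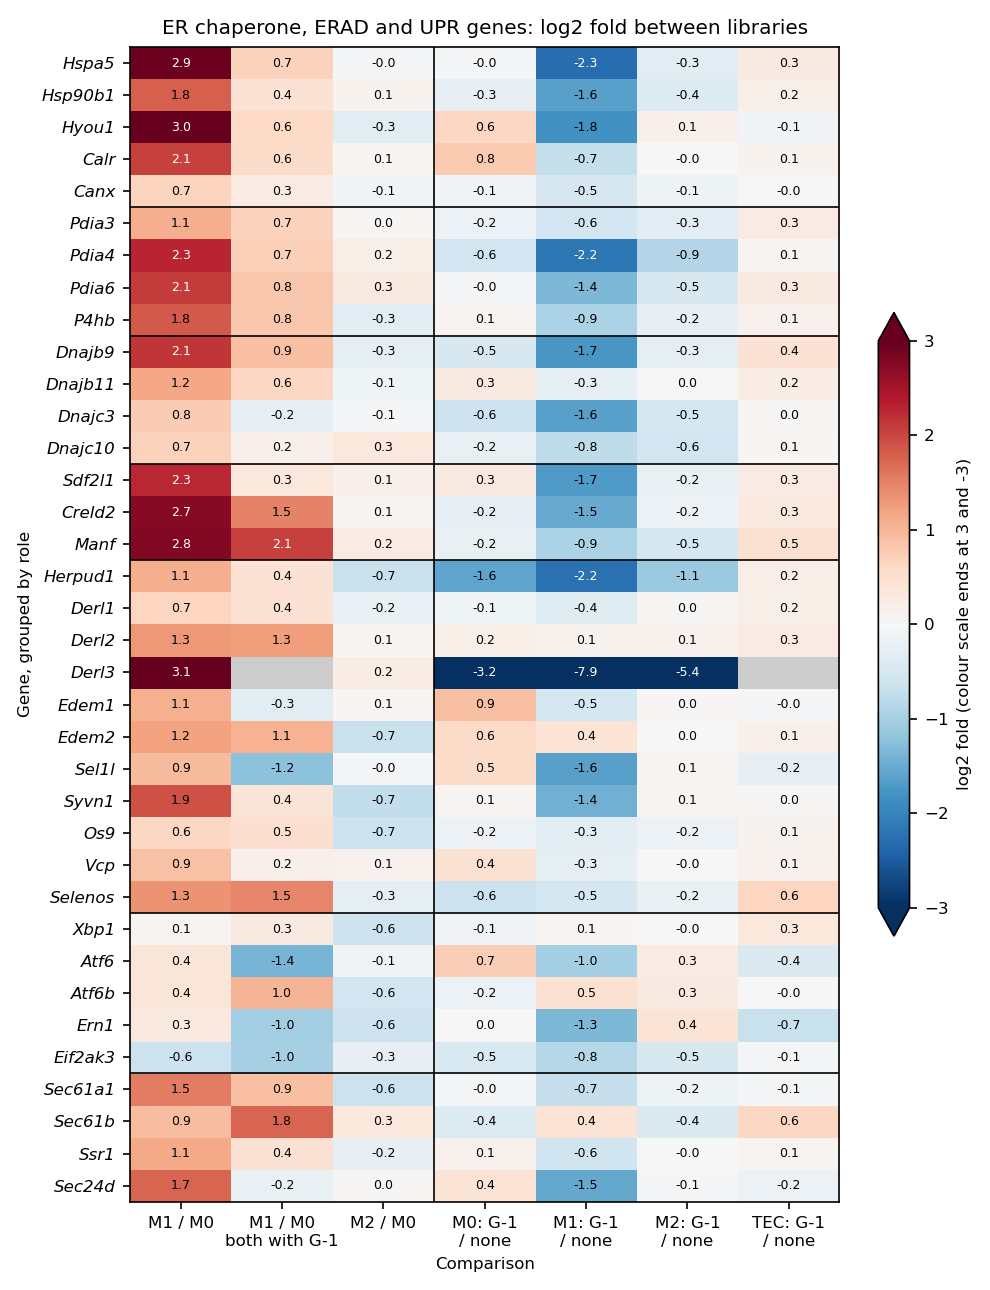
Log2 fold of each gene (rows, grouped by role) in 7 comparisons (columns), with the value in each cell; red is higher, blue is lower, the colours end at 3 and -3, and grey marks a gene that was not measured. The column of M1 over M0 is red for 35 of 36 genes, and the column of G-1 in M1 is blue for 31, while G-1 in TECs stays between -0.66 and 0.64.

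Hspa5, which encodes BiP, the HSP70 of the ER that also holds the 3 sensors inactive, had 737 CPM in M0, 647 in M0 with G-1, 5109 in M1, 909 in M1 with G-1, 784 in the library labelled M2, 639.7 in that with G-1, 899.8 in TECs and 1086 in TECs beside G-1-pretreated macrophages. M1 thus stood alone above 7 libraries of similar level. M1 exceeded M0 7.70-fold (95% interval 7.60 to 7.80) and G-1 in M1 went with a 4.89-fold lower level (4.83 to 4.94). Per kilobase of transcript Hspa5 was also the most abundant of the 36 genes in M1, at 1391 CPM per kilobase, whereas in M0 Calr was, at 268.

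Hsp90b1 encodes GRP94, the HSP90 of the ER that folds Toll-like receptors and integrins. Its level was 598 CPM in M0, 451 in M0 with G-1, 1882 in M1, 529.5 in M1 with G-1, 700.2 in the library labelled M2, 529 in that with G-1, 959.7 in TECs and 1095 in TECs beside G-1-pretreated macrophages. It was lower with G-1 in each macrophage state, and only in M1 by more than 2-fold, at 3.09-fold (3.04 to 3.14). Hyou1, the large nucleotide exchange factor of BiP, had 108, 150.3, 796, 195, 92.6, 103, 341 and 324 CPM in the same order of libraries. The 8.18-fold difference between M1 and M0 (7.91 to 8.46) was the largest of the chaperones, and with G-1 in M1 the gene was 3.54-fold lower (3.46 to 3.63), while in M0 it was 1.55-fold higher with G-1 (1.49 to 1.62).

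The lectin chaperones calreticulin and calnexin, which hold glycoproteins until they are folded, differed by less than 2-fold with G-1 in M1. Calr had 585 CPM in M0, 908 in M0 with G-1, 2188 in M1, 1154 in M1 with G-1, 663 and 658 in the pair labelled M2, and 981 and 1056 in the TEC pair. Calr exceeded M0 4.15-fold in M1 (4.09 to 4.21) and was 1.65-fold lower with G-1 in M1 (1.63 to 1.67), so the M1 library with G-1 remained above both M0 libraries. Canx ran from 494 CPM in M0 with G-1 to 837 CPM in M1 and passed 2-fold in no comparison, although both genes hold an ERSE.

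The disulfide isomerases form and rearrange the disulfide bonds of folding proteins. P4hb, the most abundant of them per kilobase in M0 and M1, had 637, 605, 2041, 919, 555, 474, 859 and 952 CPM in the order used above. Pdia3, the partner of the lectin chaperones that also serves the loading of MHC class I, had 554, 438, 1058, 615, 618, 490.3, 879.7 and 1059 CPM. Both were higher in M1 than in M0, P4hb 3.55-fold (3.50 to 3.61) and Pdia3 2.12-fold (2.09 to 2.16), and both missed 2-fold with G-1 in M1, at 1.93-fold lower (1.91 to 1.96) and 1.5-fold lower (1.47 to 1.52). By CPM, without TMM scaling, P4hb was past 2-fold with G-1 in M1. Pdia4 and Pdia6 were past 2-fold in both comparisons. Pdia4 had 112 CPM in M0, 67.3 in M0 with G-1, 494 in M1, 96.0 in M1 with G-1, 137 and 75.2 in the pair labelled M2, and 242 and 258 in the TEC pair. It was lower with G-1 in all 3 macrophage states, 1.5-fold in M0 (1.43 to 1.58), 4.48-fold in M1 (4.33 to 4.64) and 1.84-fold in the pair labelled M2 (1.75 to 1.92). Pdia6, which also attenuates IRE1 signalling, had 163, 141, 627, 214, 214, 153, 409.8 and 496 CPM. Pdia6 exceeded M0 4.28-fold in M1 (4.15 to 4.40) and was 2.55-fold lower with G-1 in M1 (2.49 to 2.61).

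The HSP40 co-chaperones recruit BiP to unfolded clients. Dnajb9 (ERdj4), an XBP1 target that brings BiP to IRE1 and to ERAD clients, had 51.9 CPM in M0, 33.4 in M0 with G-1, 207 in M1, 53.8 in M1 with G-1, 47.0 and 38.7 in the pair labelled M2, and 18.4 and 25.0 in the TEC pair. Its level in M1 with G-1 was close to that in M0, after a 4.43-fold difference between M1 and M0 (4.21 to 4.67) and a 3.35-fold lower level with G-1 in M1 (3.20 to 3.52). Dnajc3 encodes p58IPK, a co-chaperone first known as an inhibitor of PERK and related kinases, and had 160.0, 93.8, 245, 68.8, 168, 117, 94.8 and 97.7 CPM in the same order. It was lower with G-1 in every macrophage pair, 1.53-fold in M0 (1.47 to 1.60), 3.10-fold in M1 (2.97 to 3.24) and 1.44-fold in the pair labelled M2 (1.39 to 1.5), and the M1 library with G-1 was the lowest of the 8. Dnajb11 (ERdj3) was past 2-fold in M1 over M0 only, with 91.5, 98.2, 184, 131, 91.0, 91.9, 88.7 and 103 CPM and a fold of 2.24 (2.15 to 2.33). Dnajc10 (ERdj5), an ER reductase, ran from 85.5 CPM in M1 with G-1 to 285 CPM in TECs beside G-1-pretreated macrophages and passed 2-fold in no comparison.

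Creld2, Manf and Sdf2l1 encode small proteins of the ER lumen that are classical ER stress targets, and MANF is also secreted. They were among the members with the largest differences between M1 and M0. Sdf2l1, a partner of the co-chaperone ERdj3, had 53.0 CPM in M0, 57.4 in M0 with G-1, 229 in M1, 61.6 in M1 with G-1, 63.6 and 55.2 in the pair labelled M2, and 24.2 and 29.2 in the TEC pair. The 5 other macrophage libraries lay within 53.0 to 63.6 CPM, and M1 exceeded M0 4.79-fold (4.56 to 5.04), with a 3.23-fold lower level with G-1 in M1 (3.09 to 3.38). Creld2 had 19.1, 14.5, 115, 34.9, 21.9, 19.4, 41.6 and 51.6 CPM, which is 6.67-fold above M0 in M1 (6.15 to 7.25) and 2.86-fold lower with G-1 in M1 (2.69 to 3.04). Manf had 62.7, 48.6, 385, 174, 81.0, 57.0, 156 and 215 CPM. Unlike Sdf2l1, Manf in M1 with G-1 remained well above the M0 libraries. Its 1.92-fold lower level with G-1 in M1 (1.87 to 1.98) did not reach 2-fold, although by CPM, without TMM scaling, it did.

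ERAD recognises misfolded proteins in the ER, moves them through a membrane channel and hands them to the proteasome. Herpud1, a membrane protein that organises the HRD1 ubiquitin ligase complex and whose gene is also a target of ATF4, had 3421 counts in M0, 1086 in M0 with G-1, 7308 in M1, 1386 in M1 with G-1, 2702 in the library labelled M2, 1205 in that with G-1, 1723 in TECs and 1885 in TECs beside G-1-pretreated macrophages. The macrophage libraries with G-1 had 29.4, 34.4 and 31.2 CPM, and those without G-1 had 97.7, 186 and 66.4 CPM, so these groups did not overlap. By CPM, the same held for 7 of the 36 genes, Hsp90b1, Canx, Pdia4, Dnajc3, Dnajc10, Herpud1 and Derl3. It also held for 4.73% of all genes measured in the 3 pairs, while 0 of the 36 lay wholly above with G-1 (3.69% of all genes). Scaling by total counts, as CPM does, moved the median log2 fold of all genes by -0.16 in M0, -0.20 in M1 and 0.01 in the pair labelled M2. After TMM scaling Canx was 1.06-fold lower with G-1 in M0. Derl3 passed the filter only through the libraries without G-1. Herpud1 was 2.99-fold lower with G-1 in M0 (2.79 to 3.20), 4.71-fold lower in M1 (4.44 to 4.99) and 2.15-fold lower in the pair labelled M2 (2.01 to 2.30).

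Derl3, an ER stress-inducible member of the derlins, the candidate channel proteins of ERAD, was scarce in all libraries. It had 30 counts in M0 and 0 with G-1, 263 in M1 and 1 with G-1, 44 in the library labelled M2 and 1 with G-1, and 6 and 8 in the TEC pair. Reads of this gene were thus nearly absent from all 3 macrophage libraries with G-1. In each macrophage pair it passed the filter on low counts only through the library without G-1, so it could not have been called higher there. With a floor of 3 counts in place of the 0, it was 9.48-fold lower with G-1 in M0, a value that leaves out the counting error. It was 235-fold lower in M1 (41.8 to 9305) and 42.2-fold lower in the pair labelled M2 (7.19 to 1703). The difference between M1 and M0 was 8.69-fold (5.94 to 13.1), the largest among the 36 genes, with an interval that includes the value of Hyou1. Derl3 is also known from plasma cells, of whose 4 listed markers Mzb1, Jchain and Tnfrsf17 had at most 19 counts in any library, while Sdc1, which macrophages also express, had 170 to 15372.

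The channel, ligase and lectin genes of ERAD were more moderate. Syvn1, the HRD1 ubiquitin ligase, had 70.9 CPM in M0, 67.5 in M0 with G-1, 239 in M1, 76.6 in M1 with G-1, 46.4 and 49.5 in the pair labelled M2, and 71.8 and 74.7 in the TEC pair. Its level in M1 with G-1 was close to that in the M0 libraries, after a 3.75-fold difference between M1 and M0 (3.59 to 3.92) and a 2.72-fold lower level with G-1 in M1 (2.61 to 2.83). Sel1l, the scaffold of HRD1, had 217, 284, 374, 105, 228, 242, 112 and 95.4 CPM and was 3.10-fold lower with G-1 in M1 (2.99 to 3.21). Its transcript is long, and the length trend of this pair bears on its value, as given below. Edem1, a mannosidase-like protein that marks glycoproteins for ERAD, had 266 CPM in M0 and 443 with G-1, 505 in M1 and 304 with G-1, 299 and 309 in the pair labelled M2, and 140.0 and 138 in the TEC pair. It stood 1.86-fold higher with G-1 in M0 (1.81 to 1.91) and 1.45-fold lower with G-1 in M1 (1.41 to 1.48).

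Some ERAD genes that were higher in M1 than in M0 were not 2-fold lower with G-1 in M1. Derl2 had 57.5, 57.9, 127, 119.6, 64.8, 71.3, 53.2 and 64.1 CPM in the order used above, and both M1 libraries stood above the 6 others. Edem2 had 83.0, 111, 173, 199.7, 56.9, 58.2, 33.3 and 37.2 CPM, and was the only ERAD gene with its highest value in M1 with G-1. Selenos, the selenoprotein that recruits the ATPase p97 to the membrane, had 64.8, 37.5, 148, 89.4, 57.4, 49.2, 45.7 and 71.6 CPM. In M1 it stood 2.54-fold above M0 (2.42 to 2.67), and it was lower with G-1 in each macrophage state, by less than 2-fold. The remaining ERAD genes passed 2-fold in no comparison. Derl1 ran from 106 to 280.4 CPM over the 8 libraries, the lectin Os9 from 137 to 525 CPM, and Vcp, which encodes p97, the ATPase that extracts ERAD clients, from 385 to 819 CPM.

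The sensors and transcription factors had the smallest median difference between M1 and M0 of the role groups, at a log2 fold of 0.30. Xbp1 had 209.8 CPM in M0, 175 in M0 with G-1, 200.0 in M1, 182 in M1 with G-1, 147 and 147 in the pair labelled M2, and 107 and 134 in the TEC pair. While chaperone and ERAD genes known as targets of XBP1 stood several-fold above M0 in M1, Xbp1 itself was 1.06-fold higher (1.03 to 1.09). That is its fold after TMM scaling, and by CPM Xbp1 was lower in M1 than in M0. Counts per gene do not separate spliced from unspliced Xbp1, nor do they measure the cleavage of ATF6 or the phosphorylation of PERK. Atf6 had 159.9, 238, 184, 78.5, 162, 195, 73.5 and 54.8 CPM, and was 1.66-fold higher with G-1 in M0 (1.60 to 1.71) and 2.04-fold lower with G-1 in M1 (1.96 to 2.13). Ern1, the gene of IRE1α, had 81.5, 74.3, 90.6, 31.2, 57.7, 76.9, 40.8 and 26.0 CPM, and was 2.53-fold lower with G-1 in M1 (2.37 to 2.70). With the length and GC trend of this pair removed, neither Atf6 nor Ern1 passed 2-fold, at log2 folds of -0.20 and -0.61. In the pair labelled M2 the order was the opposite, with Ern1 1.32-fold higher with G-1 (1.25 to 1.40). Eif2ak3, the gene of PERK, had 58.6, 38.1, 33.9, 16.4, 53.4, 38.4, 89.0 and 86.4 CPM. After TMM scaling it was the only member below M0 in M1, by 1.56-fold (1.45 to 1.67). It was lower with G-1 in each macrophage state. Atf6b, the paralog of Atf6, had 91.7, 72.8, 106, 127, 67.3, 81.3, 65.3 and 65.3 CPM and passed 2-fold only in M1 over M0 between the libraries with G-1, at a log2 fold of 1.01.

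At the entry and the exit of the ER, the values differed by subunit. Sec61a1, the pore of the translocon, had 227 CPM in M0, 197 in M0 with G-1, 589 in M1, 316 in M1 with G-1, 157 and 142 in the pair labelled M2, and 371 and 359.6 in the TEC pair. The M1 library was the highest, 2.88-fold above M0 (2.81 to 2.96), and the library with G-1 lay 1.62-fold below it (1.59 to 1.66). Sec61b, a small subunit of the same channel, had 41.7, 28.4, 71.2, 82.7, 56.6, 42.2, 75.2 and 117 CPM and was lower with G-1 in M1 only once the length trend described below was removed, at a log2 fold of -0.62 against 0.42. Ssr1, a subunit of the translocon-associated complex, had 178, 173, 351, 203, 164, 165, 266 and 282 CPM and stood 2.20-fold above M0 in M1 (2.13 to 2.26). Sec24d, a cargo adaptor of the COPII coat that carries proteins to the Golgi, had 78.8, 93.7, 237, 70.9, 87.1, 84.2, 92.4 and 83.0 CPM. M1 alone was high, 3.34-fold above M0 (3.20 to 3.48) and 2.91-fold above M1 with G-1 (2.79 to 3.03).

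In the M1 pair the folds of all genes followed the length of the transcript, which touches the values of long and short members. Over 10988 genes the Spearman correlation of log2 fold with length was -0.57, as a description across genes, and the 20% of genes with the shortest transcripts had a median log2 fold of 0.73, against -0.66 for the 20% with the longest. The members had a median length of 2843 bases (564 to 9333), near the median of 3048 bases over all genes. With the running median over length and then over GC content removed, the median of the 36 genes was -0.81, again 16 were at least 2-fold lower (8.35% of all genes) and 0 higher (5.06% of all genes). Of the 16, 13 were called in both. Sel1l, Atf6 and Ern1, which have long transcripts, then stood at log2 folds of -0.90, -0.20 and -0.61 and no longer passed 2-fold, so that 0 of the 5 sensors and transcription factors did. P4hb, Manf and Selenos passed it, at -1.01, -1.19 and -1.19. Sec61b, with a transcript of 564 bases, changed from 0.42 to -0.62, and Ssr1, with 9333 bases, from -0.59 to 0.36. The cause of the trend was not tested. M1 over M0 had no such trend, with a correlation of 0.02.

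**Figure D3:**
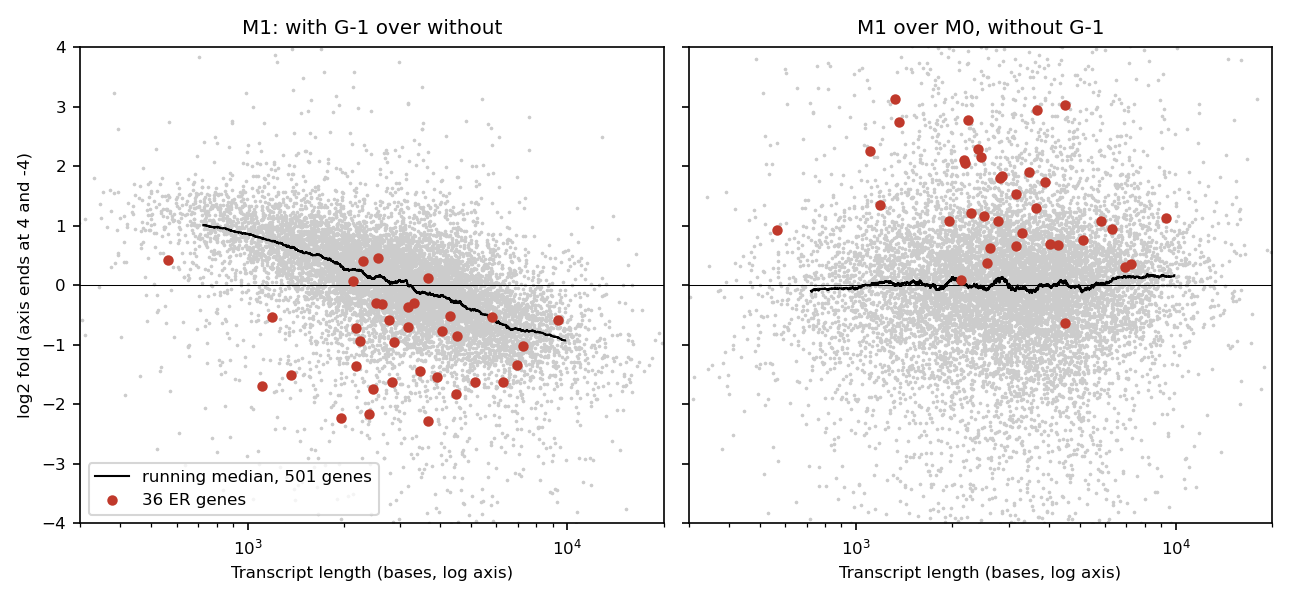
Log2 fold against transcript length (log axis) for all measured genes (grey), with the running median over neighbouring genes (black line) and the 36 ER genes (red), for G-1 in M1 (left) and M1 over M0 (right); Derl3, at -7.87 in the left panel, lies beyond the axis. The running median falls with length on the left and stays near 0 on the right, and the red points lie mostly below the line on the left and above it on the right.

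The difference between M1 and M0 macrophages was also taken between the libraries with G-1, a comparison added after the data had been seen. Of 35 members measured there, 7 were at least 2-fold higher (17.7% of all genes) and 4 at least 2-fold lower (19.7% of all genes), and the median log2 fold was 0.49 against 1.19 without G-1. Of the 36 genes, 32 had a smaller log2 difference with G-1 than without, against 49.5% of the 10997 genes measured in both comparisons. Derl3 is among the 32 at its floor value, although it was not measured between the libraries with G-1. The count uses the same libraries as the G-1 folds in M0 and M1, so it largely restates those folds and is not separate support. It was not taken with the length trend removed. For Hspa5 the fold of M1 over M0 was 7.70 without G-1 and 1.62 with G-1 (1.60 to 1.65), and for Hyou1 it was 8.18 and 1.5 (1.45 to 1.56). Manf kept the largest difference, at 4.15-fold with G-1 (3.94 to 4.37), and was 1 of 5 members past 2-fold in both, along with Creld2, Derl2, Edem2 and Selenos. Atf6b and Sec61b passed it only with G-1, at log2 folds of 1.01 and 1.75, and not with the length and GC trend removed. This comparison includes the M1 library with G-1 and carries its length trend. With the trend removed, 4 members were at least 2-fold higher, namely Hyou1, Manf, Derl2 and Ssr1 (13.4% of all genes), and 0 were lower (15.8% of all genes), so Sel1l, Atf6, Ern1 and Eif2ak3 were no longer past 2-fold.

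**Figure D4:**
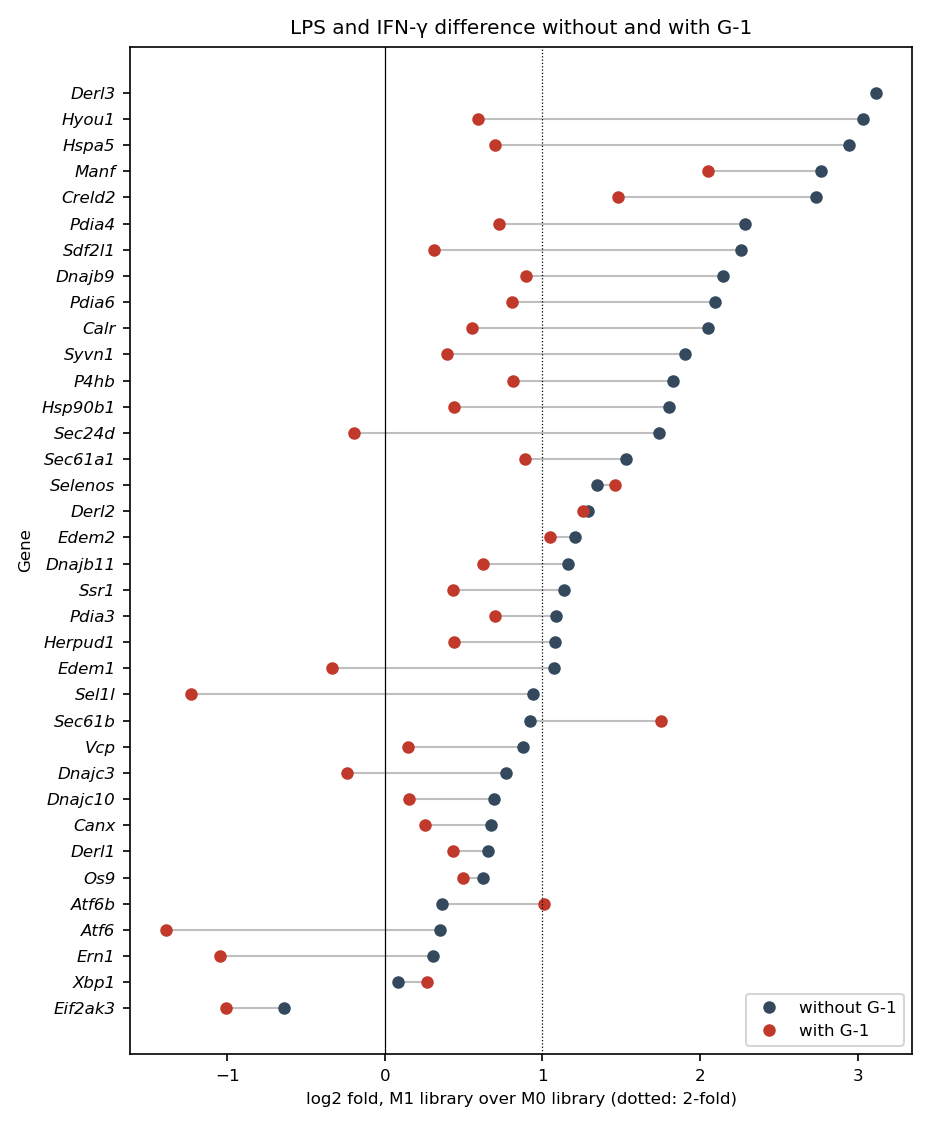
Log2 fold of M1 over M0 for each gene between the libraries without G-1 (dark) and between those with G-1 (red), ordered by the value without G-1; the dotted line marks 2-fold, and Derl3 has no red point because it had 0 and 1 counts with G-1. The red point lies to the left of the dark one for all genes drawn with both except Selenos, Sec61b, Atf6b and Xbp1.

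Outside M1, G-1 went with few large differences among these genes. In the M0 pair, 0 of the 36 were at least 2-fold higher with G-1 (12.2% of all genes) and 2 at least 2-fold lower, Herpud1 and Derl3 (12.6% of all genes), with a median log2 fold of -0.07. In the pair labelled M2, 0 were higher (5.95% of all genes) and the same 2 genes were lower (7.78% of all genes), with a median of -0.17. In both pairs Derl3 passed the filter only through the library without G-1. The summed macrophage markers also differed in the pair labelled M2, with 44620 CPM without and 20840 CPM with G-1. Of the 8 markers, 6 were lower and 2 higher, and their part in the values was not tested. Between the extremes, members moved in both directions in M0. Edem1, Calr, Atf6, Hyou1 and Edem2 had the highest values with G-1, with log2 folds of 0.89, 0.79, 0.73, 0.63 and 0.58, and Selenos, Dnajc3 and Pdia4 stood at -0.63, -0.61 and -0.58. The summed macrophage markers differed in the M0 pair as well, with 39780 CPM without and 10420 CPM with G-1. Of the 8 markers, 7 were lower and 1 higher, and their part in the values was not tested.

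Over the 3 macrophage pairs, 17 of the 36 genes were lower with G-1 each time (18.8% of 10578 genes measured in all 3) and 2 were higher each time (21.0%). Herpud1 and Derl3 were at least 2-fold lower in each (1.47% of all genes). Derl3 passed the filter in each pair only through the library without G-1. With at least 100 counts required, it was not measured in M0 or in the pair labelled M2. The G-1 effect shared by the 3 states was tested with the quasi-likelihood method of edgeR in the 6 macrophage libraries, where a model with state left 2 residual degrees of freedom. None of the 36 genes passed an adjusted p of 0.05, and 0 of all 11921 genes tested did, with 1634 of them at an unadjusted p below 0.05. At an unadjusted p below 0.05 there were 6 members, all of them lower with G-1 (5.67% of all genes were higher and 8.04% lower at this level). The smallest values were those of Derl3, with a log2 fold of -6.84 ± 0.84 (SE) and an edgeR Benjamini-Hochberg adjusted p of 0.115, and of Herpud1, with -1.67 ± 0.29 and an adjusted p of 0.137, both lower in 3 of 3 pairs. The SE was derived from the F statistic of the test, as the absolute log2 fold divided by the square root of F. For Derl3, nearly absent with G-1, it does not show the width of the counting intervals given above. Pdia4, Dnajc3, Eif2ak3 and Dnajb9 followed, with log2 folds of -1.23, -0.95, -0.63 and -0.86. With DESeq2 and the same model, 823 genes passed, 333 higher (2.79%) and 490 lower (4.11%), and among the members Derl3 (adjusted p = 4.5e-07), Herpud1 (adjusted p = 6.0e-05) and Pdia4 (adjusted p = 0.031) were lower. Across the alternatives of this test the adjusted p ran from 4.5e-07 to 0.114 for Derl3 and from 6.0e-05 to 0.197 for Herpud1.

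The library labelled M2 differed little from M0 in these genes. Of the 36, 0 were at least 2-fold higher (7.7% of all genes) and 0 at least 2-fold lower (6.64% of all genes), with a median log2 fold of -0.07. The lowest values were those of Syvn1 at -0.73, Herpud1 at -0.68, Edem2 at -0.67, Os9 and Sec61a1 at -0.65 and Xbp1 at -0.63. The highest were those of Sec61b at 0.32 and Dnajc10 at 0.31. These values come from a library without the usual IL-4 response.

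In TECs beside G-1-pretreated M1 macrophages, none of the 35 members measured differed by 2-fold from TECs beside untreated ones, with 0 higher (1.39% of all genes) and 0 lower (2.82% of all genes). The median log2 fold was 0.14, and 25 members were above and 10 below. Selenos at 1.56-fold (1.46 to 1.65) and Sec61b at 1.54-fold (1.47 to 1.61) were the highest, and Ern1 at 1.58-fold lower (1.46 to 1.72) and Atf6 at 1.35-fold lower (1.28 to 1.43) were the lowest. The folds of all genes followed length here too, with a correlation of -0.60, and with the trend removed Selenos, Sec61b, Ern1 and Atf6 stood at log2 folds of 0.31, 0.21, -0.29 and -0.05. Hspa5 was 1.2-fold higher (1.18 to 1.22). The cells differed from macrophages in which of the genes they used, with 271 CPM of Dnajc10 and 738 CPM of Vcp, above every macrophage library, and 18.4 CPM of Dnajb9 and 24.2 CPM of Sdf2l1, below every macrophage library.

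The members were set beside 160 other ER and stress genes grouped by role. In M1 over M0, 58 of the 157 with enough counts were higher by 2-fold or more and 9 lower (36.9% and 5.73%, against 16.8% and 17.4% of all genes), with a median log2 fold of 0.75. The translocon and signal recognition list had 10 of 23 higher, the COPII and ER to Golgi list 10 of 24, and the other ERAD genes 1 of 26 with a median of 0.16, below the 1.08 of the ERAD members. With G-1 in M1, 6 of 156 were higher and 20 lower (3.85% and 12.8%, against 9.44% and 12.1% of all genes), so the share that was lower was near that of all genes. Their median was -0.10 against the -0.90 of the members, and with the length and GC trend removed 0 were higher and 15 lower (5.06% and 8.35% of all genes). Creb3l2, a transmembrane transcription factor of secretory cells, had 1300 counts in M1 and 162 with G-1 and was 7.16-fold lower (6.08 to 8.48), a log2 fold of -2.84 that became -2.06 with the trend removed. Tram2, a translocation factor for collagen, had 295 and 46 counts and was 5.72-fold lower (4.18 to 7.99), a log2 fold of -2.52 that became -1.82. The gene next in order, Srp54a, is uncertain because near-identical copies of it may share its reads. Serp1, which protects unfolded proteins during translocation, was at least 2-fold lower with G-1 in all 3 macrophage pairs, as Herpud1 and Derl3 were, at 3.0-fold in M0 (2.92 to 3.08), 2.23-fold in M1 (2.19 to 2.27) and 2.41-fold in the pair labelled M2 (2.34 to 2.47). In M1 its log2 fold was -1.16, and -0.81 with the trend removed. In the TEC pair 0 of 158 were higher and 1 lower (1.39% and 2.82% of all genes), Tram2, at 2.76-fold (2.21 to 3.47).

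With G-1, the PERK, ATF4 and CHOP branch had medians of opposite sign to those of the members in all 3 macrophage pairs. In M1 over M0, 13 of its 16 genes were at least 2-fold higher and 1 lower (16.8% and 17.4% of all genes), with a median log2 fold of 2.56. With G-1 in M0, 8 of 16 were higher and 3 lower (12.2% and 12.6% of all genes), with a median of 1.12. In the pair labelled M2, 9 of 16 were higher and 1 lower (5.95% and 7.78% of all genes), with a median of 1.36. With G-1 in M1, 1 of 15 was higher and 1 lower, with a median of 0.28. That is 6.67% each way, below the 9.44% and 12.1% of all genes. The medians of the members in these pairs were -0.07, -0.17 and -0.90. With the length and GC trend removed, the median of the branch in M1 was 0.09, with 0 genes higher and 2 lower (5.06% and 8.35% of all genes). Trib3, a pseudokinase induced by ATF4 and CHOP, had 40 counts in M0, 868 in M0 with G-1, 3843 in M1, 4171 in M1 with G-1, 71 in the library labelled M2, 1751 in that with G-1, and 578 and 772 in the TEC pair. Only the M0 library and the library labelled M2 were low, and Trib3 was 22.9-fold higher with G-1 in M0 (16.7 to 32.3) and 25.7-fold higher in the pair labelled M2 (20.3 to 33.1). Chac1, which degrades glutathione, went from 3 to 149 counts with G-1 in M0, a ratio of 52.4 (17.6 to 257), and from 14 to 378 in the pair labelled M2. Slc7a11, the cystine transporter, had 162 counts in M0 and 2822 with G-1, 33691 in M1 and 11667 with G-1, and 113 and 4248 in the pair labelled M2. Asns, the asparagine synthetase, was 2.22-fold higher with G-1 in M1 (2.13 to 2.33). In the same list Nupr1 and Ddit4 were lower with G-1 in M0, 6.12-fold (4.41 to 8.68) and 3.86-fold (2.73 to 5.58). Vldlr, also of this list, had 99 counts in M0 and 0 with G-1. In the pair labelled M2 it had 274 and 24 counts and was 10.9-fold lower with G-1 (7.20 to 17.4). Of the 157 other genes tested with edgeR over the 6 libraries, 0 passed an adjusted p of 0.05, with 18 at an unadjusted p below 0.05 (11.5%, against 13.7% of all genes). DESeq2 called 9 of them, 6 higher and 3 lower (2.79% and 4.11% of all genes).

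**Figure D5:**
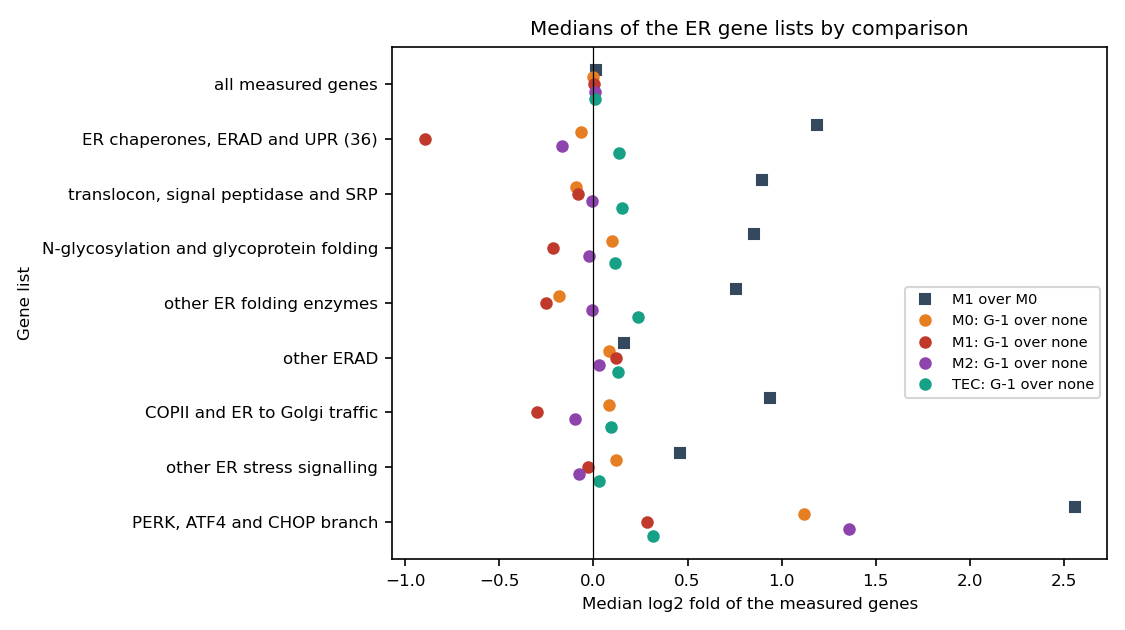
Median log2 fold of the measured genes of each list (rows) in 5 comparisons (squares, M1 over M0; circles, with G-1 over without). The 36 genes stood at -0.90 with G-1 in M1, the lowest of the lists drawn, and the PERK, ATF4 and CHOP list stood at 1.12 and 1.36 with G-1 in M0 and in the pair labelled M2.

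The members that hold an ERSE or ERSE-II, Dnajb11 included, had a median log2 fold of 1.91 in M1 over M0 (11 genes, 0.67 to 3.12). The 20 without either had 1.08 (-0.64 to 2.29). With G-1 in M1 the medians were -1.51 and -0.59, with the length trend of this pair left in. The ranges overlapped in both comparisons, since Pdia4, Sdf2l1 and Dnajb9 moved as far as many genes with the element, and Canx, which holds it, moved little. In M1 over M0 between the libraries with G-1, the medians were 0.50 (10 genes) and 0.47. With G-1 in M0 they were -0.08 and -0.04, in the pair labelled M2 -0.305 and -0.118, and in the TEC pair 0.19 (10 genes) and 0.115. The genes with the element include Derl3, which passed the filter in the macrophage pairs only through the libraries without G-1.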

How the data were processed

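Read counts per gene symbol were analysed in 8 libraries, each of them 1 group. After TRIzol extraction and library preparation (VAHTS Universal V6), paired ends were read, and the authors deposited whole-number counts without normalization. The submitters' notes name mm10 and DESeq2. For the aligner, the counter and the use of strand, nothing is given in the sources used. The members and lists were chosen with earlier results of these data known.

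CPM were computed from library totals of 35027179 to 40671596 counts. Folds within a pair used TMM factors (edgeR 4.0.16, R 4.3.3), with exact binomial 95% intervals computed in Python 3.11.15 (scipy 1.17.1). A gene was measured at 20 counts or more in the library with more, and called at 2-fold. A count of 0 was set to 3 counts. Transcript lengths and GC content came from GENCODE M21, and the trend was removed by running medians over 501 genes. The shared G-1 effect was tested with glmQLFit and glmQLFTest on genes kept by filterByExpr, with Benjamini-Hochberg adjustment, and DESeq2 1.42.0 was the other tool. The code was tested on simulated data. Values are given for members past 2-fold in a comparison, for the most abundant member of each role and for the sensors, and other ER genes are drawn from up to 3 per direction and comparison with the largest folds among those with at least 100 counts, not all of which are printed. The alternatives were other scalings, filters, a prior count, a threshold of 1.5-fold, removal of the trend and leaving out each macrophage pair.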

Additional observations from a re-analysis of the deposited data

Results flagged for a closer look

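Some members moved one way with G-1 in one pair of libraries and the other way in another, each by at least 1.5-fold. The difference between the pairs was not tested, because each pair holds 1 library per group. Hyou1 had a log2 fold with G-1 of 0.63 in M0 and of -1.82 in M1. Calr stood at 0.79 in M0 and at -0.72 in M1. Atf6 stood at 0.73 in M0 and at -1.03 in M1, and its value in M1 was -0.20 with the length and GC trend removed. Selenos had a log2 fold of 0.64 in TECs beside G-1-pretreated macrophages and of -0.63 with G-1 in M0, and its value in TECs was 0.31 with the trend removed.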

How the results depend on the processing

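The labels give no replicate numbers, and the shared G-1 test takes the state as the block. Of 108 recomputed counts of members called, 90 stayed within 1.5 times of the reported count and 18 did not. Of 30 recomputed medians, 24 stayed within the counting interval and 6 left it, and no called gene changed direction. Among recomputed values of single members, 788 stayed within their counting interval or kept their call in the shared test. A further 280 left their counting interval, and 8 passed the adjusted p threshold that they had missed. Of the medians, that of the library labelled M2 over M0 turned from -0.07 to 0.05 with scaling by total counts. At 1.5-fold in place of 2-fold, 4 members were higher and 4 lower with G-1 in M0 (0 and 2 reported; 21.8% and 21.5% of all genes), 2 higher and 1 lower in TECs (0 and 0; 4.66% and 8.1%), 1 lower in M1 over M0 (0; 27.0%) and 7 lower in the library labelled M2 (0; 14.7%). With at least 100 counts, Derl3 was not measured in the M0 pair or the pair labelled M2, which left 1 member lower in each (2 reported). Scaling by total counts moved the median of all genes by -0.16 for G-1 in M0, -0.20 for G-1 in M1, -0.15 for M1 over M0 and 0.12 for the library labelled M2. The shared G-1 test depended on its settings. Against 0 members and 0 genes, DESeq2 called 3 members and 823 genes, no filter 1 and 25, leaving out the M0 pair 1 and 37, leaving out the M1 pair 2 and 978, and leaving out the pair labelled M2 1 and 47. Depth limits Derl3 most, whose intervals span from 7.19 to 1703 and from 41.8 to 9305.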
